A study of Mus musculus with 2 samples.

Results

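The GIMAP gene cluster is a run of 8 neighbouring genes on mouse chromosome 6 (Gimap8, Gimap9, Gimap4, Gimap6, Gimap7, Gimap1, Gimap5 and Gimap3, in that order), and its chromatin was profiled here with an antibody to TCF-1 in lymphoid tissue inducer (LTi) cells. Its members are the islands, stretches of clustered reads, that overlap by at least 1 bp the stretch from the first to the last Gimap gene plus 10 kb on either side, chr6:48637186-48780851 (mm10, counted from 1). There were 19 such islands among the 19531 of the deposited table. They were chosen by their position and with the read counts of these data known. Their counts and folds are therefore descriptions, and nothing is concluded from a test of them.

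LTi cells, innate lymphoid cells that help to build lymph nodes and Peyer's patches, were sorted as live, lineage-negative, CD127+ and CCR6+ cells without KLRG1, NK1.1 or NKp46. One sample held Tcf7fl/fl-VavCre cells of the small intestinal lamina propria, in which Cre driven by Vav acts in blood cells. That Cre is meant to remove the floxed (fl) Tcf7, the gene of TCF-1, and loss of TCF-1 was not tested here. The other sample held Tcf7+/+ cells of Peyer's patches, and both came from C57BL/6 mice. Genotype and tissue differed together, each with 1 library of 500 formaldehyde-fixed cells, and neither age nor the number of animals is given in the sources used here. In chromatin immunocleavage sequencing (ChIC-seq) micrococcal nuclease is tethered by an antibody to a protein on chromatin, here TCF-1, the HMG-box factor encoded by Tcf7, and the fragments it releases are sequenced.

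The table gives, for each island, the reads counted in a peak library and in its control, and the header names no sample. "Control" is the island caller's word for the library it counts against. A sample is titled ChIC-seq_Ctrl, but nothing in the header ties the control column to it. Whether that column holds either of the 2 TCF-1 samples or another library is not stated. Neither column was therefore tied to a genotype, and every value below is given for the peak library against the control library. All islands together held 483771 reads of the peak library and 189291 of the control library. The fold of an island is the authors' value, peak-library reads over control-library reads times a library factor of 1.997, recovered from the deposited folds. A scaled control count is a control count times that factor. Intervals are exact 95% binomial intervals on the reads and take in no error but that of counting. They treat every read as independent, so any copies made by PCR among the reads would make them too narrow. An island is called passing below where its FDR, the caller's adjusted p-value as deposited by the authors, is 0.05 or less. With 1 library on each side there is no replicate check of any difference.

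GIMAP proteins (GTPases of immunity-associated proteins) are small GTP-binding proteins, most of them tied to intracellular membranes, and their genes are active mainly in lymphocytes. In mice and rats they are known for the survival of resting lymphocytes: animals that lack Gimap5 have few peripheral T cells. TCF-1 is a DNA-binding factor of T cells and innate lymphoid cells that recognises short sequences built around CTTTG.

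Every Gimap gene had an island over its start, and the starts are shown here because these islands are the most regular feature of the cluster. RefSeq (GRCm38.p6) gives 9 start windows of 300 bases for the 8 genes, 250 bases before and 50 after each start, with a pair of starts for Gimap8. A few of these windows follow, 5′ to 3′ on the strand of the gene. Those of Gimap7 and Gimap3 are the 2 that hold a TCF sequence, Gimap3 and Gimap6 are the genes whose start islands had the highest and the lowest fold, and Gimap9 is the gene whose start island had the most control-library reads. Capitals mark the TCF letters, where there are any.
Gimap7, chr6:48718371-48718670, plus strand: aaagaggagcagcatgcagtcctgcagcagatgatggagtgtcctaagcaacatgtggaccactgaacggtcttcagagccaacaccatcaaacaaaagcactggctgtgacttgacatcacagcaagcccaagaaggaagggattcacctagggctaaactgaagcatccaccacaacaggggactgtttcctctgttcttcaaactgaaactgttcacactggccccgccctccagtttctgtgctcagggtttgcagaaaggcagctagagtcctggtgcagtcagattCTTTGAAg
Gimap3, chr6:48770802-48771101, minus strand: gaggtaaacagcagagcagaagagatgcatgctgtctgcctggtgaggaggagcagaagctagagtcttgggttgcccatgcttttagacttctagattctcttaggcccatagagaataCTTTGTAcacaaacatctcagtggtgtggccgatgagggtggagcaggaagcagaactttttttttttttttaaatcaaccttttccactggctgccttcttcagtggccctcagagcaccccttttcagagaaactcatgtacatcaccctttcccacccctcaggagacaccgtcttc
Gimap6, chr6:48708195-48708494, minus strand: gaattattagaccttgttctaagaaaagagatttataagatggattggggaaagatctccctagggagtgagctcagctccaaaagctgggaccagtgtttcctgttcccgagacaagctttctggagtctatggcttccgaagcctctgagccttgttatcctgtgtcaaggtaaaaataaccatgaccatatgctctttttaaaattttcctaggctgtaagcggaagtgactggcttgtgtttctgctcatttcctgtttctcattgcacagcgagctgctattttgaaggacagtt
Gimap9, chr6:48675885-48676184, plus strand: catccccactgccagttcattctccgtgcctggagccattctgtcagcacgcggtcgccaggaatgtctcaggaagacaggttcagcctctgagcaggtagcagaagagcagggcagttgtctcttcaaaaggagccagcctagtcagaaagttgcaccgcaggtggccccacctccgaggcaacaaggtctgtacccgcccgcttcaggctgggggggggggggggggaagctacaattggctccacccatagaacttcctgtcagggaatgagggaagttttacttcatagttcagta

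The letters searched for TCF were CTTTG followed by AA, AT, TT or TA, on both strands, and no match overlapped another. Gimap7 held CTTTGAA from position 43 and Gimap3 held CTTTGTA from position -130, counted from the start of the gene, both on the strand of the gene. CTTTGAA stood in 4.54% of the 21263 start windows of protein-coding genes, CTTTGTA in 3.17%, and at least 1 of the 4 in 14.7%, against 2 of the 9 Gimap windows. Neither TGTGGTT, a RUNX sequence found in 4.71% of all windows, nor CCGGAAG, an ETS sequence found in 11.6%, was present in a Gimap window. A match or its absence in these 300 bases describes the letters and not where a factor sits. The Gimap windows held 2 to 8 CpG dinucleotides, against a median of 13 over all windows, with Gimap9 at 8. Their GC content ran from 43.3% at Gimap6 to 57.3% at Gimap9, and the median over all windows was 56.3%. Gimap genes arose by duplication, but no run of identical bases longer than 14 was shared by the start windows of different Gimap genes. Whether reads in more similar stretches of the cluster could be placed on a single gene was not tested.

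The cluster was densely covered by islands, and both libraries had reads in all of them. In sum the peak library had 501 reads and the control library 265 over 44400 bp of island, a pooled fold of 0.947 (0.814 to 1.1). That is 11.3 reads per kb in the peak library and 5.97 per kb, unscaled, in the control library. The folds ran from 0.592 to 2.00 with a median of 1.00. For comparison, the pooled fold was 1.62 (1.61 to 1.63) and the median 1.84 over the 19513 nuclear islands below 200 peak-library reads. Without that limit on reads the pooled fold was 1.43 (1.42 to 1.44) over the nuclear chromosomes and 1.28 (1.27 to 1.29) over all 19531 islands. The pooled value for comparison thus depends on the few islands with most reads. By the caller's factor, 10 of the 19 folds were above 1 and 9 (47.4%) below it, while 10.2% of all islands were below 1. That split turns with the scaling: 2 islands were above 1 and 17 below with the table's totals set equal, 1 above and 18 below with the totals of the 19513 islands set equal, and all 19 above 1 with no scaling.

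**Figure D1:**
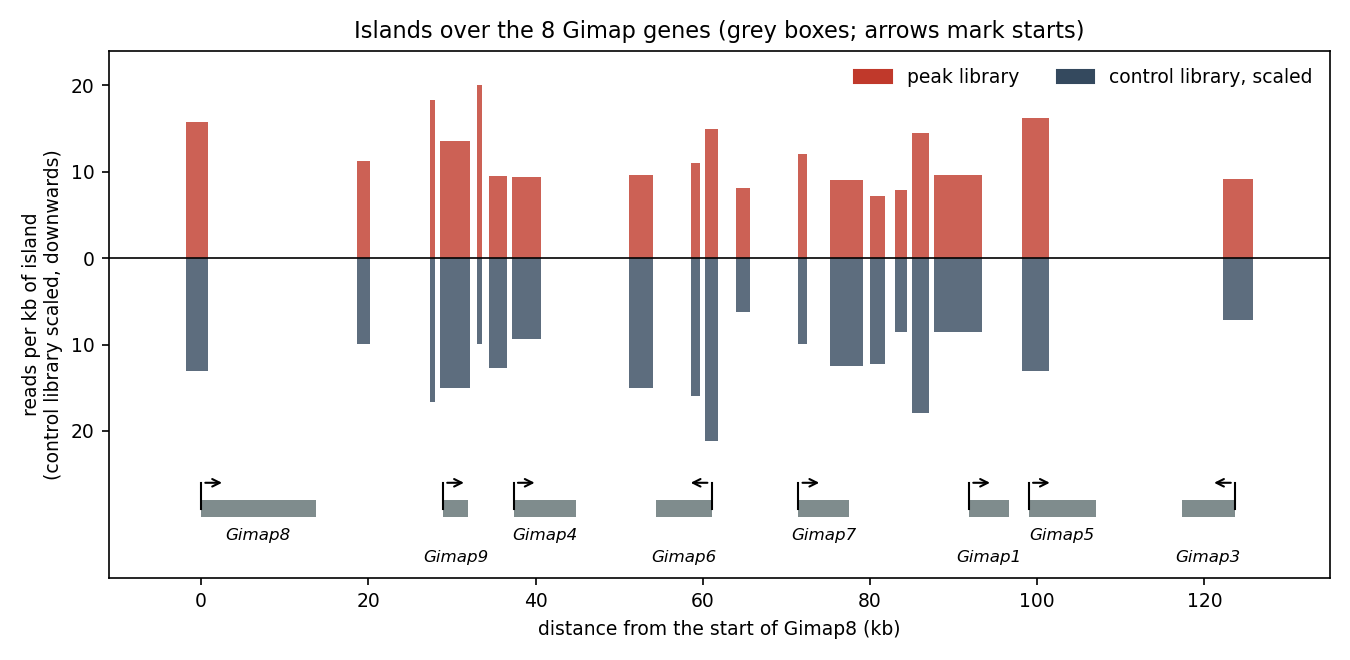
Reads per kb of island along the cluster, against the distance in kb from the start of Gimap8. Bars upwards are the peak library, bars downwards the control library times 1.997, bar width is island width, and grey boxes with arrows are the 8 genes and their starts. Bars of similar height stand above and below the line along the whole cluster, and each start has an island over it.

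Of the 19 islands, 1 was passing, where 62.5% of all islands were. That island, chr6:48680201-48680800, lies 1085 bp beyond the end of Gimap9, and it had 12 reads in the peak library and 3 in the control library. Its fold was 2.00 (0.541 to 11.1) and its FDR 0.0162, with an interval that reaches below 1. The caller's test takes the 3 control reads as known, and the interval gives both counts their error. Among all islands, the 12215 passing ones all had a fold above 1. The low share of passing islands in the cluster is therefore not separate from the split of its folds around 1. An exact binomial test that gives both counts their error, with Benjamini-Hochberg adjustment over all 19531 islands, passed 0 of the 19 (0.374% of all islands passed) and 0 at an unadjusted p below 0.05 (18.5% of all islands). This test compares the 2 libraries and not the genotypes, and since the same counts chose the islands nothing is read from these shares. Single islands held 11 to 56 peak-library and 3 to 27 control-library reads, and the interval of every fold included 1. In 7 of the 19 it lay wholly below the 1.62 of nuclear islands under 200 peak-library reads. Only chr6:48698401-48701200 and chr6:48722401-48726400, with upper ends of 1.20 and 1.25, lay wholly below the 1.28 of all islands. The shares of all islands whose intervals lie below these values were not counted, so nothing is read from either count.

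Gimap5, whose product sits on lysosomal membranes and keeps T cells alive in mice, had 1 island, over its start at chr6:48745401-48748600. It held 52 reads in the peak library against 21 in the control library, a fold of 1.24 (0.734 to 2.17). The rest of the gene lies in the largest stretch without an island inside the cluster, 20800 bp. Gimap1, which mature T and B cells of the mouse need to persist, had the widest island of the cluster, 5800 bp at chr6:48734801-48740600. It held 56 reads in the peak library, the most of the 19, against 25 in the control library, a fold of 1.12 (0.689 to 1.88). Gimap3, a close relative of Gimap5 that affects how mitochondrial DNA variants segregate in mouse blood cells, had 1 island over its start, at chr6:48769401-48773000. It held 33 reads in the peak library against 13 in the control library, a fold of 1.27 (0.652 to 2.63). These 3 islands, the last of the cluster, had folds slightly above 1, each with an interval that includes 1.

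Gimap6, whose human product binds the autophagy protein GABARAPL2, lay lower. Its start island, chr6:48707401-48709000, held 24 reads in the peak library against 17 in the control library, a fold of 0.707 (0.364 to 1.40). The control library reached 10.6 reads per kb there, its highest density in the cluster. A second island inside the gene, chr6:48705801-48706800, held 11 reads in the peak library against 8 in the control library, a fold of 0.689 (0.252 to 1.97). Another, chr6:48698401-48701200, ends 383 bp short of the gene and held 27 reads in the peak library against 21 in the control library, a fold of 0.644 (0.351 to 1.20). All 3 folds were below 1, with intervals that include it. On the other side, 2957 bp before the start of Gimap6, an island at chr6:48711201-48712800 held 13 reads in the peak library against 5 in the control library and stood at 1.30 (0.436 to 4.67).

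Gimap7, whose human product hydrolyses GTP as a dimer, carried 2 islands that differed in size. The island over its start, chr6:48718601-48719600, was small, with 12 reads in the peak library against 5 in the control library and a fold of 1.20 (0.394 to 4.36). The island over its far end, chr6:48722401-48726400, was broad, with 36 reads in the peak library against 25 in the control library and a fold of 0.721 (0.421 to 1.25). Between Gimap7 and Gimap1 lay 3 more islands that touch no Gimap gene. The first of them, chr6:48727201-48729000, had the lowest fold of the cluster, 0.592 (0.245 to 1.46), from 13 reads in the peak library against 11 in the control library. The next, chr6:48730201-48731600, held 11 reads in the peak library against 6 in the control library, and the last, chr6:48732201-48734200, held 29 against 18. Their folds were 0.918 and 0.807, so this stretch too lay below 1.

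Gimap4, which speeds the death of T cells in mice, had 1 island over its start, at chr6:48684401-48687800. It held 32 reads in the peak library against 16 in the control library, a fold of 1.00 (0.534 to 1.96). The island before it, chr6:48681601-48683800, held 21 reads in the peak library against 14 in the control library, a fold of 0.751 (0.364 to 1.6). Gimap9 had 1 island across the whole gene, chr6:48675801-48679400, with 49 reads in the peak library against 27 in the control library and a fold of 0.909 (0.557 to 1.51). This is the largest control count among the 19 islands. The noncoding gene Gm46958 overlaps the start of Gimap9 and lies under the same island, so the reads cannot be given to either gene. A small island 921 bp before Gimap9, chr6:48674601-48675200, held 11 reads in the peak library against 5 in the control library, a fold of 1.1 (0.353 to 4.05).

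Gimap8, whose product carries several GTPase domains in a row, had 1 island over both of its starts, chr6:48645401-48648000. It held 41 reads in the peak library against 17 in the control library, a fold of 1.21 (0.671 to 2.27). The pseudogene Gm44262, beyond the end of Gimap8, touches an island at chr6:48665801-48667400 with 18 reads in the peak library against 8 in the control library and a fold of 1.13 (0.466 to 3.00). All 19 islands are thereby accounted for.

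**Figure D2:**
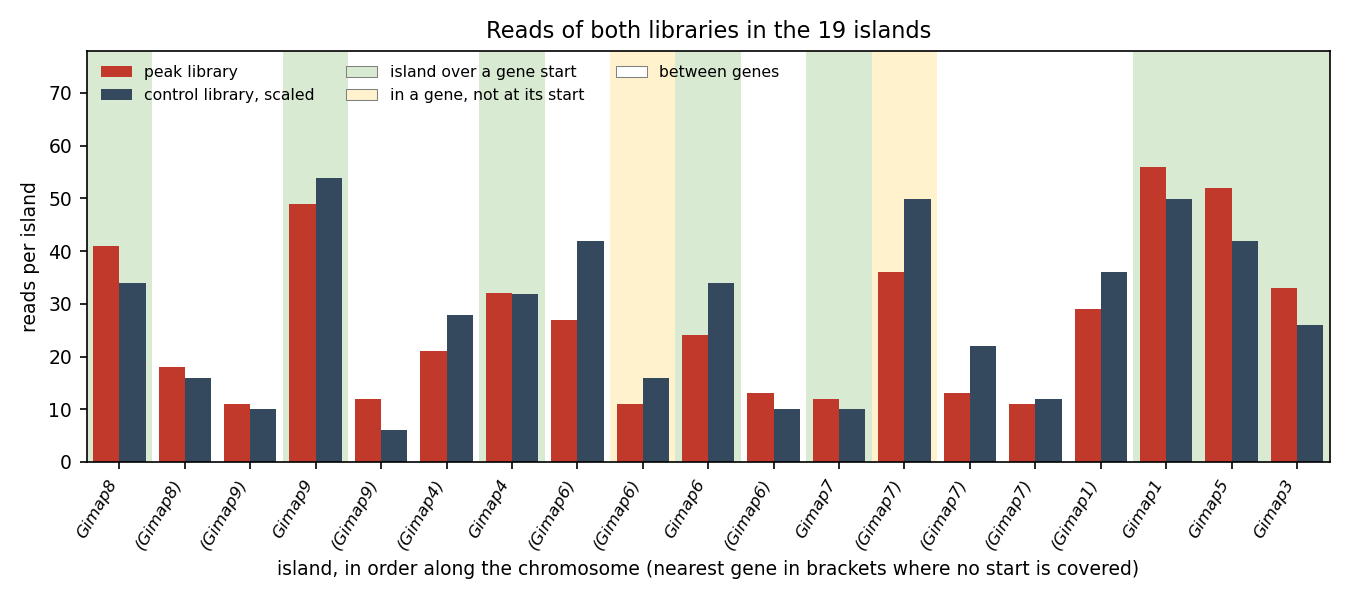
Reads per island in order along the chromosome, with the peak library as the left bar and the control library times 1.997 as the right bar of each pair. Shading marks islands over a gene start, elsewhere in a gene, and between genes. The scaled control bar exceeds the peak bar in 9 of the 19 islands, all of them between the start of Gimap9 and Gimap1.

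By position, 8 islands covered a gene start, 2 lay elsewhere in a gene and 9 lay between the genes. The start islands held 299 reads in the peak library against 141 in the control library over 24800 bp, a pooled fold of 1.06 (0.866 to 1.31). The 11 others held 202 reads in the peak library against 124 in the control library over 19600 bp, a pooled fold of 0.816 (0.649 to 1.03). The 2 intervals overlap, and the difference was not tested because both values come from the counts that chose the islands. Exons, introns and untranslated regions were not told apart, since the annotation used gives gene ends and starts only.

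All 8 Gimap genes had an island over a start window, where 39.7% of 17492 protein-coding genes did. For passing islands the count was 0 of the 8, against 20.9% of all protein-coding genes. With 10 kb added on either side of each gene, all 8 had an island (54.7% of 21887 protein-coding genes). A passing island lay in that range for 2 of them (40.3% of protein-coding genes), Gimap9 and Gimap4, which share it. Gimap neighbours share islands in this count, so the 8 genes are not independent.

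Within the islands, the density of peak-library reads was near that of other islands and the density of control-library reads was higher. The median island of the cluster had 11.0 peak-library reads per kb, against 11.8 over the 19513 nuclear islands below 200 peak-library reads, and 8 of the 19 lay above that overall median. For control-library reads the median was 6.25 per kb in the cluster against 3.16 over those islands. Of the 19, 18 lay above the overall median and 11 above the upper quartile of 5.00 per kb. The islands were also wider, with a median of 2000 bp against 1400 bp. An island's fold falls by construction as its control count rises. Among islands with 6 to 8 control-library reads per kb, the 7 of the cluster pooled to 0.880 and the 1855 nuclear islands to 1.1. With 8 to 12 control-library reads per kb the values were 0.783 for 4 islands of the cluster and 0.977 for 1081 islands. With 4 to 6 they were 1.12 for 6 and 1.32 for 4136. At 2 to 4 they were 1.28 for 2 islands of the cluster and 1.88 for 6582 islands.

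**Figure D3:**
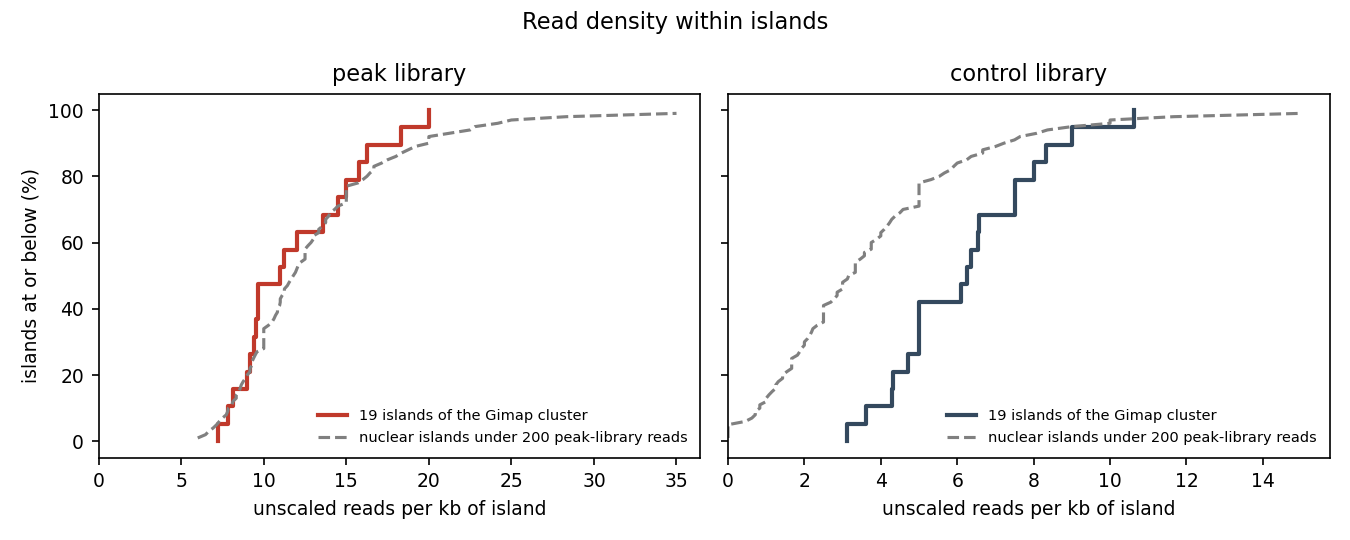
Cumulative share of islands (%) by unscaled reads per kb of island, for the peak library on the left and the control library on the right. Solid steps are the 19 islands of the cluster and dashed lines the 19513 nuclear islands below 200 peak-library reads, drawn from percentiles 1 to 99. The solid and dashed lines run close together for the peak library, and the solid line is shifted to higher densities for the control library, with medians of 6.25 and 3.16.

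With no flank, the count of islands over the gene stretch alone was also 19, and further islands lay outside it on the Gimap3 side. Towards Zfp775, the nearest protein-coding gene on the Gimap8 side, the next island lay 34186 bp outside the chosen stretch, over an end of Zfp775 at chr6:48601801-48603000, with 26 reads in the peak library against 8 in the control library. The 250 kb on that side held 4 islands with 73 reads in the peak library against 20 in the control library over 4400 bp, a pooled fold of 1.83 (1.1 to 3.17). On the Gimap3 side the first island outside began 3550 bp past the limit, at chr6:48784401-48787200, with 23 reads in the peak library against 6 in the control library and a fold of 1.92 (0.760 to 5.76). The next was chr6:48788201-48789600 with 15 reads in the peak library against 2 in the control library, a fold of 3.76 (0.874 to 33.9). Farther out, chr6:48802001-48804000 held 40 reads in the peak library against 10 in the control library, a fold of 2.00 (0.984 to 4.49). All 3 were passing, and no gene is annotated under them. The 250 kb on this side, which reach the membrane protein genes Tmem176b and Tmem176a, held 10 islands with 172 reads in the peak library against 43 in the control library over 15800 bp, a pooled fold of 2.00 (1.43 to 2.87). On the Gimap8 side 3 of the 4 islands were passing and on the Gimap3 side 8 of the 10, beside 62.5% of all islands, and none of them had a fold below 1.

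**Figure D4:**
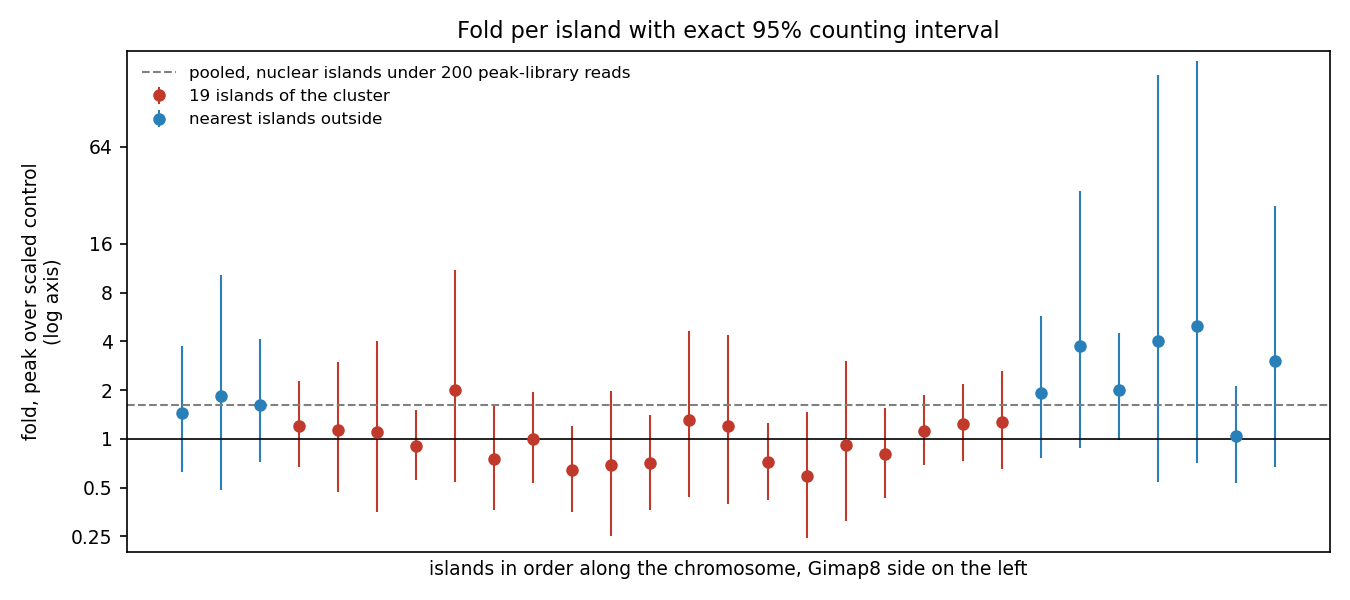
Fold of each island, peak library over scaled control library, on a log axis with its exact 95% counting interval, in order along the chromosome. Red points are the 19 islands of the cluster, blue points the nearest 3 and 7 islands outside it, the solid line is 1 and the dashed line the pooled fold of 1.62. The red points lie around 1, between 0.592 and 2.00, and the blue points between 1.04 and 5.01.

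Set beside 3 other gene clusters, the Gimap stretch had more islands per length and a lower pooled fold than each of them. Other stretches of the genome held as many islands in the same width, among them the Ugt1a genes with 21 and a histone gene cluster with 19. It held 13.2 islands per 100 kb, and islands covered 30.9% of its 143.7 kb. Over the nuclear chromosomes, from the first to the last protein-coding gene of each, there were 0.725 islands per 100 kb and 1.20% was covered. The interleukin-1 receptor cluster on chromosome 1, whose genes encode receptors for cytokines of the interleukin-1 family, held 6.37 islands per 100 kb, 31 in all, with 592 reads in the peak library against 98 in the control library over 54200 bp. Its pooled fold was 3.03 (2.44 to 3.79), and 27 of its islands were passing. Guanylate-binding proteins (Gbp genes) are interferon-induced GTPases that likewise lie in clusters. The Gbp cluster on chromosome 3 held 4.35 islands per 100 kb with a pooled fold of 1.45 (1.01 to 2.14), and the one on chromosome 5 held 1.32 per 100 kb with 2.64 (1.37 to 5.58). These intervals lie above 1 and that of the Gimap cluster includes 1. The differences were not tested, since the counts that chose the islands are the ones compared.

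**Figure D5:**
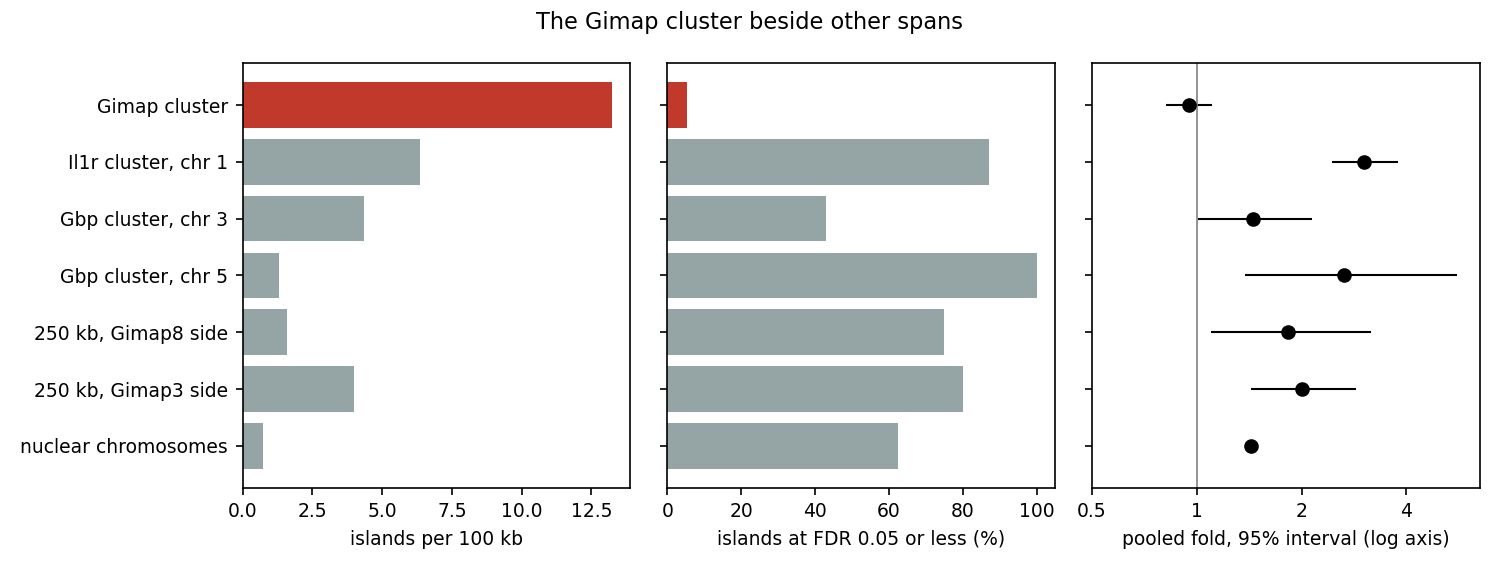
Islands per 100 kb, percent of passing islands (FDR of 0.05 or less), and pooled fold with its exact 95% interval on a log axis, for the Gimap cluster at the top, 3 other gene clusters, the 250 kb on either side, and all nuclear chromosomes at the bottom. The Gimap cluster has 13.2 islands per 100 kb, the highest bar of the first panel, and 5.26% of them passing, the lowest of the second.

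Other GTPases of lymphoid and interferon-treated cells carried islands too. Of 14 such genes, each extended by 10 kb both ways, 11 had an island and 8 a passing one, where 54.7% and 40.3% of all protein-coding genes did. Neighbours among them share islands, and Igtp and Irgm2 have the same 3. Their 17 islands held 344 reads in the peak library against 128 in the control library over 27400 bp, a pooled fold of 1.35 (1.1 to 1.66). Irgm1, an immunity-related GTPase that acts against intracellular bacteria in mice, had the most reads, 116 in the peak library against 59 in the control library in 2 islands. Its pooled fold was 0.985 (0.714 to 1.37). Gbp5 had 58 reads in the peak library against 20 in the control library, and Gbp7, its neighbour, had 55 against 18. The highest pooled folds were those of Gbp9 at 2.75 (0.601 to 25.6), Gbp4 at 2.69 (1.25 to 6.63) and Gbp8 at 2.5 (0.708 to 13.5). Mx1, Mx2 and Gbp6 had no island.

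Genes for reported partners of GIMAP proteins and for the survival and rest of lymphocytes all had islands. All 15 had an island, taken the same way, and 9 a passing one, beside the same 54.7% and 40.3%. The 62 islands held 1410 reads in the peak library against 547 in the control library over 128400 bp, a pooled fold of 1.29 (1.17 to 1.43). Bcl2, which encodes a blocker of cell death, had 19 islands with 326 reads in the peak library against 119 in the control library and a pooled fold of 1.37 (1.11 to 1.71). Mcl1, a relative of Bcl2, had 221 reads in the peak library against 99 in the control library, and Il7r, which encodes CD127, had 192 against 68. Ctnnb1, the gene of the TCF partner beta-catenin, had the highest pooled fold at 2.79 (1.23 to 7.39), ahead of Bcl2l1 at 1.82 (1.12 to 3.07) and Foxo1 at 1.79 (1.17 to 2.83). Pooled folds at Bax (0.939), Bak1 (0.980), Gsk3b (0.981) and Myc (0.835) lay below 1 with intervals that include it.

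Islands do not measure expression, and they do not check the sort. Among genes that define LTi cells, Il7r, Ccr6, Kit and Id2 each had a passing island (40.3% of all protein-coding genes), with 510 reads in the peak library against 129 in the control library and a pooled fold of 1.98 (1.63 to 2.42). Kit raised that value, with 129 reads in the peak library against 7 in the control library and a pooled fold of 9.23 (4.35 to 23.4). The others lay lower, Il7r at 1.41, Ccr6 at 1.66 and Id2 at 1.83. Passing islands were found at 1 of 3 T cell markers (Cd4, not Cd3e or Cd8a), 2 of 3 B cell markers, 2 of 4 markers of NK cells and ILC1 (Klrb1c and Klrg1) and 0 of 2 myeloid markers, counts too small to set apart from that 40.3%. Klrb1c, which encodes NK1.1, and Klrg1 had passing islands although the sort left out cells with these proteins. Since Gimap genes are active in many kinds of lymphocytes, these values stand beside those of the cluster, and the part other cells play in its counts was not tested.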

How the data were processed

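Sorted LTi cells were profiled by ChIC-seq with an antibody to TCF-1, 1 library per group. Each sample was 500 cells, fixed for 10 minutes (1% formaldehyde) and digested at 37 °C for 3 minutes, per the labels' protocols. The submitters' processing notes name Bowtie2 2.4.2, SICER 2.0 and mm10. Settings for window, gap and duplicates are not given in the sources used.

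Reads were deposited as unscaled counts per island in 2 columns, peak and control, per the file headers, which name no sample. The planned description by genotype was therefore made as peak against control library. The fold is a ratio that the authors deposited. The factor 1.997 was recovered from these folds and the counts, as a median over islands. Recomputation from the counts with it matched the deposited fold within a relative 2.4e-09 for all 18419 islands with control reads. That match shows that a single factor served these islands, and it is not an independent check of the factor. P-values and FDR values per island were deposited by the authors, and the table is not filtered on them, since 1997 islands have an FDR of 1. Island widths are multiples of 200 bp, and 1 was added to the starts and ends, which count from 0.

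Gene positions and start windows came from RefSeq GRCm38.p6, the mm10 build, and all 8 members matched. Protein sequences and a genome sequence were not used here, so the planned protein alignment was not made. Pooled folds, Clopper-Pearson intervals and a two-sided exact binomial test with Benjamini-Hochberg adjustment over 19531 islands were computed in Python 3.11.15 with scipy 1.17.1. The computation was run on simulated reads whose raised islands had folds far above those of the cluster. That run does not show what could be seen at the folds of the cluster. Whole-library depth is unknown.

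Members, lists and tests were chosen with earlier results of these data known. Named are all 8 genes, every island of the cluster, other genes annotated inside it, the nearest protein-coding gene on each side, and from each list the 3 genes with most peak-library reads and the 3 with the highest pooled fold. Genes named beyond that, such as those without an island, were chosen after their values were seen. Alternatives covered flanks, overlap, thresholds, scaling and start windows.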

Additional observations from a re-analysis of the deposited data

How the results depend on the processing

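The count of islands was 19 with no flank or with at least 50% of the island inside and 24 with 50 kb on either side, and the start count was 8 with 1 kb and with 2 kb. Thresholds cut the islands to 1 at an FDR of 0.05 or less and 0 at 1e-05 or less, beside 12215 and 4038 of all 19531 islands. With at least 20 peak-library reads 11 were left, and the same count over all islands was not made. The density fell to 0.696 islands per 100 kb at an FDR of 0.05 or less, beside 0.454 over the nuclear chromosomes. The FDR calls went from 1 to 0 at 0.01 and at 1e-05, and the share of all islands at 0.01 was not counted. The pooled fold of 0.947 became 0.740 with the table's totals set equal, 0.584 with the totals of nuclear islands under 200 peak-library reads set equal, 1.89 with no scaling, and 2.00 in the only island at an FDR of 0.05 or less. It was 0.929 without the island of most peak-library reads and 1.05 with 50 kb on either side. These scalings shift all folds alike, by -0.36, -0.70 and 1.00 on the log2 scale, so the side of 1 rests on the scaling. The binomial test passed 6 islands of the cluster with no scaling, all higher in the peak library, beside 12813 of all islands. With the table's totals set equal it passed 0 of the cluster, beside 29 of all islands. No paired analysis was possible because each group has 1 library and the columns name no sample. Counts of 11 to 56 peak-library reads per island limit what can be seen.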

Other observations

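Few windows of a fixed grid over the genome held as many islands. Of 18719 consecutive windows of 143666 bp, the width of the Gimap stretch, 5 held 19 or more islands, the highest count was 22, and 12403 held none. The windows have fixed borders, so the cluster itself is split between neighbouring windows. Other dense stretches can be split in the same way, so 5 may be too low a count of such stretches. The 5 windows were found after the counts were seen, and their genes are named for that reason. They hold the Ugt1a glucuronosyltransferase genes on chromosome 1 (21 islands), Aurkb and Per1 on chromosome 11 (20), a histone gene cluster on chromosome 13 (19), Tg and Sla on chromosome 15 (20), and Ltb, Tnf and Lta on chromosome 17 (22). Their pooled folds were 1.43 (1.21 to 1.68), 1.14 (0.986 to 1.32), 1.15 (0.980 to 1.36), 1.56 (1.28 to 1.91) and 1.34 (1.18 to 1.54), beside 0.947 (0.814 to 1.1) in the Gimap stretch. They had 6 to 12 islands at an FDR of 0.05 or less, and the Gimap stretch had 1, beside 62.5% of all islands. Reads of the peak library were 417 to 800 in these windows and 501 in the Gimap stretch, and reads of the control library were at most 298 in these windows and 265 in the Gimap stretch.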
